A study of Mus musculus with 4 samples.

Results

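Among neutrophils taken from mouse tumors, a group of cells was defined by its high content of the chemokine messages Ccl3 and Ccl4. A cell barcode, the bead tag that stands for 1 captured cell, belonged to it if it held at least 200 genes, at most 15% of its UMIs (unique RNA molecules) in mitochondrial genes, and at least 2% of all UMIs in Ccl3 and Ccl4 together. Of 947 tumor barcodes past the first 2 limits, 199 met the third, and these are called the high barcodes below. They were compared with 584 low barcodes, which had under 1%. The 164 barcodes between the limits are called intermediate, and their values are given for some genes only. Of the whole series, tumor and blood, 2481 barcodes passed the first 2 limits.

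The cells came from 3 untreated FVB mice, an inbred strain, that had been injected with Py7160 cells, a mouse mammary tumor line. Tumors of about 1 cm were taken 2 to 3 weeks later and dissociated enzymatically, and blood of the same animals went through lysis of red cells. Cells were enriched through Ly6G, stained with 1 hashtag antibody (an antibody that carries a DNA tag) per mouse, pooled by tissue and sorted as CD11b+ Ly6G+. Each tissue gave a single library by Drop-seq, in which droplets bring a cell and a barcoded bead together, so high and low barcodes share a library. The tests compare the classes within each mouse, against a spread estimated with information shared across all tested genes. A small p is therefore not a measure of agreement among the 3 mice alone, and values per mouse are given for that. The labels used here give no age.

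Ccl3 and Ccl4, also called MIP-1 alpha and MIP-1 beta, are CC chemokines that activated myeloid and lymphoid cells release, and they attract monocytes, natural killer cells, T cells and neutrophils through chemokine receptors such as Ccr1. Both messages are short lived and are induced within hours through NF-kB and other signals downstream of pattern recognition and cytokine receptors. Neutrophils leaving the blood are known to lose surface receptors of the circulating state and to gain inflammatory transcripts, and expression of Ccl3 and Ccl4 is a described feature of neutrophils in tumors. The 2 genes lie near each other. In build GRCm38 (mm10), with GENCODE annotation, Ccl3 is a protein-coding gene on the minus strand of chr11:83647844-83649355 and Ccl4 one on the plus strand of chr11:83662584-83664683.

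The high barcodes were 26 of 134 in mouse 1 (19.4%, exact 95% interval 13.1 to 27.1), 48 of 243 in mouse 2 (19.8%, 14.9 to 25.3) and 49 of 213 in mouse 3 (23%, 17.5 to 29.2). The 3 mice thus had a like share, 20.7% ± 1.99 (SD, n = 3 mice), and every mouse's interval includes the values of the other two. The assignment to mice depends on the hashtag rule. With the rule that at least 70% of hashtag counts come from 1 hashtag, 16, 121 and 42 high barcodes of mice 1, 2 and 3 entered the test, and with hashtag counts scaled within barcodes 17, 100 and 42. Of the 199 high barcodes, 123 carried a single hashtag and enter the tests by mouse, and 76 did not. In blood 0 of 1534 barcodes reached 2%, with an exact 95% interval of up to 0.240%. A floor of 3 barcodes would be 0.196%. The highest blood barcode stood at 0.281%. All blood barcodes together held 8 UMIs of Ccl3 and Ccl4. Intervals and floors here cover counting error only.

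**Figure D1:**
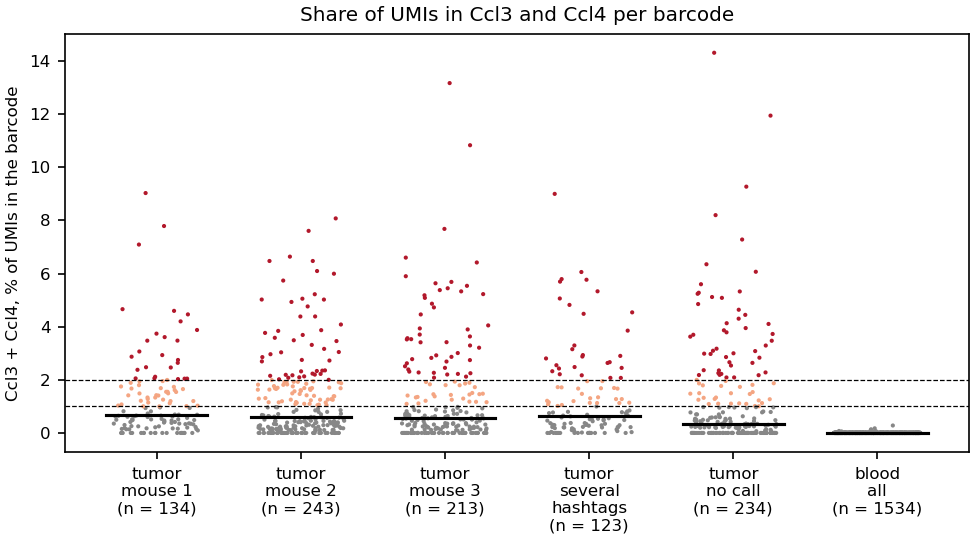
Each point is 1 barcode, and the vertical axis is the percent of its UMIs in Ccl3 and Ccl4. Black bars mark medians, dashed lines mark 1% and 2%, and red, pale and grey points are high, intermediate and low barcodes. High barcodes occur in all 3 mice and in tumor barcodes without a single hashtag, and none occurs among the 1534 blood barcodes.

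Barcodes lay on both sides of the limit. The summed share in the high barcodes had a median of 3.42% and ran from 2.00% to 14.3%, with 115 barcodes at 3% or more and 72 at 4% or more. Between 2% and 2.5% lay 52 barcodes, and between 1.5% and the limit lay 68 others. Just inside, a barcode of 500 UMIs held 10 of Ccl3 and 0 of Ccl4 (2.00%), and just outside, one of 601 UMIs held 2 of Ccl3 and 10 of Ccl4. The group is defined as a range of a per-barcode measure, and whether it forms a cell type of its own was not tested. Its members rest on small counts, with a median of 20 summed UMIs and a minimum of 6.

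RNA set free from broken cells enters every droplet. It was read from 5945 tumor barcodes with 20 to 60 UMIs, in which Ccl3 and Ccl4 made up 0.372% of UMIs, well under the 2% limit. In blood barcodes of that size it was 1 UMI of 246931. Depth differed little between the classes: the median was 581 UMIs and 275 genes in high barcodes and 558.5 UMIs and 297.5 genes in low barcodes, with 2.78% and 3.05% in mitochondrial genes. Across the 590 tumor barcodes with a single hashtag, Spearman's rho between the summed share and the remaining UMIs was 0.02, as a description.

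The high barcodes held 63.5% of all Ccl3 UMIs and 66.8% of all Ccl4 UMIs of the 947 tumor barcodes, against 19.6% of all UMIs. The rule uses these values, so they describe the group and test nothing. The members differed in which of the 2 genes they carried. Ccl3 gave 2989 and Ccl4 2046 of their UMIs, and Ccl3 made up 56.9%, 54.1% and 66.3% of that sum in mice 1, 2 and 3. Per barcode the part from Ccl3 had a median of 65.0%, with quartiles at 38.1% and 91.3%. In 125 members Ccl3 was ahead, in 71 Ccl4 was, and 3 had equal counts. No Ccl4 UMI was seen in 39 members and no Ccl3 UMI in 6. For 53 members at least 90% of the sum was Ccl3, for 14 at most 10%, and 132 lay between. The exact 95% binomial interval of a member's Ccl3 part lay above the pooled 59.4% in 65 members, below it in 52, and included it in 82. These counts describe the members, since the same UMIs chose them and made up the pooled value. Across the 590 barcodes rho between the Ccl3 share and the Ccl4 share was 0.28.

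**Figure D2:**
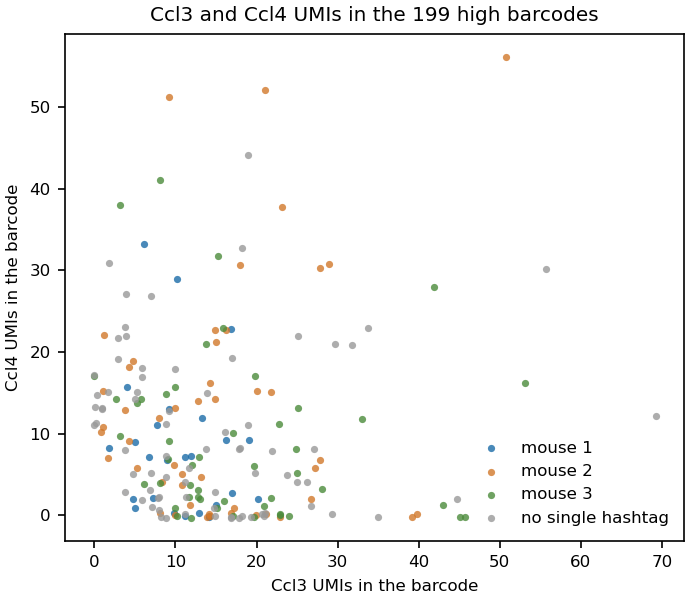
Each point is 1 of the 199 high barcodes, with its Ccl3 UMIs on the horizontal and its Ccl4 UMIs on the vertical axis, slightly jittered, coloured by mouse. Points lie along both axes as well as between them: 39 members have no Ccl4 UMI and 6 no Ccl3 UMI.

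To see what else set the high barcodes apart, Ccl3 and Ccl4 were removed from the counts and from the depth, each high barcode was matched to at most 2 low barcodes of the same mouse within 20% of its remaining UMIs, and UMIs were summed by mouse and class. This gave 123 high and 242 low barcodes, 78718 and 152810 UMIs, in 6 sums. Levels are given as CPM, a gene's UMIs scaled to a library total of 1000000 without Ccl3 and Ccl4, and the test is edgeR's quasi-likelihood test with the mouse as a block and Benjamini-Hochberg adjustment over 1560 genes with at least 20 UMIs in all. At an adjusted p under 0.05, 49 genes (3.14%) were higher and 64 (4.1%) lower in high barcodes, together 113 (7.24%), and 47 and 59 of them had the same direction in 3 of 3 mice. Over all tested genes, the 3 high values lay above the 3 low values in 143 (9.17%) and below them in 225 (14.4%). The median log2 fold change over the 1560 genes was -0.02. The counts depend on the processing: with DESeq2 in place of edgeR 8 genes were higher and 14 lower, without mouse 2 the counts were 16 and 28, and with at least 300 genes per barcode 12 and 32. In simulated counts of this depth the test found 57 of 98 genes changed 4-fold (58.2%) but 14 of 91 changed 2-fold (15.4%), so a gene that was not called here may still differ by that much. The simulation gave every gene the same dispersion and the mice no difference, and it did not copy UMIs clumped in single barcodes. Its rates may thus differ from those in the real counts.

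Among the chemokines, Cxcl2 and Cxcl3 were higher in high barcodes. Both encode ligands of Cxcr2 that draw neutrophils. Cxcl2 stood at 61187, 56168 and 71433 CPM in the high barcodes of mice 1, 2 and 3, and at 27733, 18293 and 27090 CPM in their low barcodes. Every high value lay above every low value, and Cxcl2 alone took about 6% of the remaining UMIs of high barcodes, 62929 ± 7781 CPM against 24372 ± 5274 (SD, n = 3 mice). The log2 fold change was 1.40 ± 0.08 (SE, edgeR, adjusted p = 3.57e-37), and of 18 other settings only the limit of 300 genes per barcode ended the call (1.07, adjusted p = 0.148). Cxcl3 stood at 888, 503 and 764 CPM in high and 193, 77.0 and 242 CPM in low barcodes, again without overlap. Its change was 2.10 ± 0.43 (adjusted p = 0.000111), and it was called in all 18 other settings. Its 53 UMIs in high barcodes came from only 13 of the 123, and 1 barcode held 18 of them, so this value describes few cells. Cxcl1, another ligand of Cxcr2, did not pass (0.32 ± 0.40, adjusted p = 0.77), and 21 of its 44 UMIs in high barcodes came from 1 barcode.

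Both genes lie on chromosome 5, and their promoters are printed here because they were higher together, with that of Ccl3, 1 of the 2 selecting genes, for comparison. The runs are the 250 bases before the RefSeq start of each gene in GRCm38.p6, on the strand of the gene, at chr5:90903649-90903898 for Cxcl2 (plus), chr5:90785851-90786100 for Cxcl3 (plus) and chr11:83649379-83649628 for Ccl3 (minus). Capitals mark bases that match the NF-kB consensus, searched on both strands.
Cxcl2: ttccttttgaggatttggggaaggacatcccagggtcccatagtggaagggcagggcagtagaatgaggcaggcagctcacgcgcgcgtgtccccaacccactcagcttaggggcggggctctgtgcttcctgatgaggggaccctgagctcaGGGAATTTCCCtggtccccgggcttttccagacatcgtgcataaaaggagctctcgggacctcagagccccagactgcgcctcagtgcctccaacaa
Cxcl3: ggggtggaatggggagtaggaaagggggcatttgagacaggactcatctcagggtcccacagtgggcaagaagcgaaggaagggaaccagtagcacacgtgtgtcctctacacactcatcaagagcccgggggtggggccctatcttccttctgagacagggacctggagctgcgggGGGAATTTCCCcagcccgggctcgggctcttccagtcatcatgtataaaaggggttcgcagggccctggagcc
Ccl3: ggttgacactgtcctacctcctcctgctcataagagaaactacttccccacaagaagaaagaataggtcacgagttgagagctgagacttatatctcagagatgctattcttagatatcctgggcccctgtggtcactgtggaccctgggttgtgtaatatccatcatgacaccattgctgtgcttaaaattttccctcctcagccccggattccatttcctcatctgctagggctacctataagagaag
In Cxcl2 and Cxcl3 the match is the same stretch of 11 bases, read on either strand as overlapping matches that begin 97 and 96 bases before the start in Cxcl2 and 73 and 72 before it in Cxcl3. The window of Ccl3 held no match to the NF-kB consensus, to the AP-1 motif TGANTCA or to the C/EBP motif TTGCNNAA. These 3 motifs were also searched in the windows of Acod1, which held none, and of Retnlg, which held 1 match for C/EBP, and the motifs and these 5 genes were picked after the results were known. For counts over gene sets, windows ran from 250 bases before to 50 after the start, and those of 1 chromosome were left out. The NF-kB consensus was present in 9 of the 34 higher genes with a counted window (26.5%). It was present in 2 of 47 lower genes (4.26%), in 104 of 1216 tested genes (8.55%) and in 1388 of 27025 genes counted (5.14%). AP-1 was present in 17.6%, 10.6%, 7.81% and 8.97% of the same sets, and C/EBP in 17.6%, 19.1%, 11% and 12.2%. A match is a run of letters and does not show that a factor binds there, and no match says only that these letters are not in the window.

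The other chemokine genes were too rare to test, except Ccl6. Ccl6, a CC chemokine of myeloid cells, stood at 444, 296 and 795 CPM in high and 809, 708 and 1066 CPM in low barcodes and did not pass (-0.75 ± 0.33, adjusted p = 0.188). Of the genes under 20 UMIs, Ccl2 had 0 UMIs in high and 11 in low barcodes, Ccl9 had 2 and 7, and Ccl5 had none in either. Cxcl10, an interferon-induced ligand, went the other way, with 12 UMIs in high and 1 in low barcodes. Among receptors, Ccrl2, an atypical receptor that binds chemerin, was higher: 15389, 15574 and 15400 CPM against 11016, 8608 and 9999 CPM, a difference of 0.67 ± 0.11 on the log2 scale (edgeR, adjusted p = 1.27e-06). Cxcr2 was lower, with 370, 474 and 541 CPM against 1656, 1293 and 1292 CPM (-1.49 ± 0.30, adjusted p = 0.000111). High barcodes thus had more message for 2 Cxcr2 ligands and less for the receptor. Intermediate barcodes had 13201 ± 1515 CPM of Ccrl2, between the classes, and 534 ± 131 CPM of Cxcr2, near the high barcodes (SD, n = 3 mice). Ccr1, a receptor for Ccl3, did not pass (-0.41 ± 0.22, adjusted p = 0.331).

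Of 13 tested cytokine and growth factor genes, 5 were higher, none was lower, and the median log2 fold change was 0.77. Here and for the lists that follow, the same over all tested genes is 3.14% higher, 4.1% lower and a median of -0.02. Il1rn, which encodes the receptor antagonist that blocks interleukin 1, stood at 7029, 7047 and 6173 CPM in high and 3158, 3172 and 3602 CPM in low barcodes (1.04 ± 0.15, edgeR, adjusted p = 1.39e-08). Il1b itself, which encodes an agonist of that receptor, overlapped between the classes at 13983, 11755 and 6714 CPM against 16178, 8900 and 10678 CPM (-0.14 ± 0.12, adjusted p = 0.62). The antagonist thus passed the test and this agonist did not, and the difference between the 2 genes was not tested. Il1a, the other interleukin 1 agonist, was higher at 148, 622 and 414 CPM against 0, 123 and 80.8 CPM (2.45 ± 0.55, adjusted p = 0.000541), on 36 and 13 UMIs. Il1f9 (interleukin 36 gamma), an epithelial and myeloid alarm cytokine that is not in the list, was higher at 3403, 2487 and 4836 CPM against 1656, 831 and 1793 CPM (1.39 ± 0.20, adjusted p = 6.87e-09). Il1rn and Il1f9 kept the call in all 18 other settings, whereas Tnf (1.14 ± 0.35, adjusted p = 0.0264) lost it in 12. The other 2 higher members were Il23a, a subunit of interleukin 23 (1.47 ± 0.36), and Inhba, the activin A subunit (1.46 ± 0.33), whose calls were lost in 7 and 4 of 18 settings. Il23a was at 195 ± 159 CPM in intermediate barcodes, against 932 ± 454 in high and 358 ± 224 in low barcodes (SD, n = 3 mice).

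**Figure D3:**
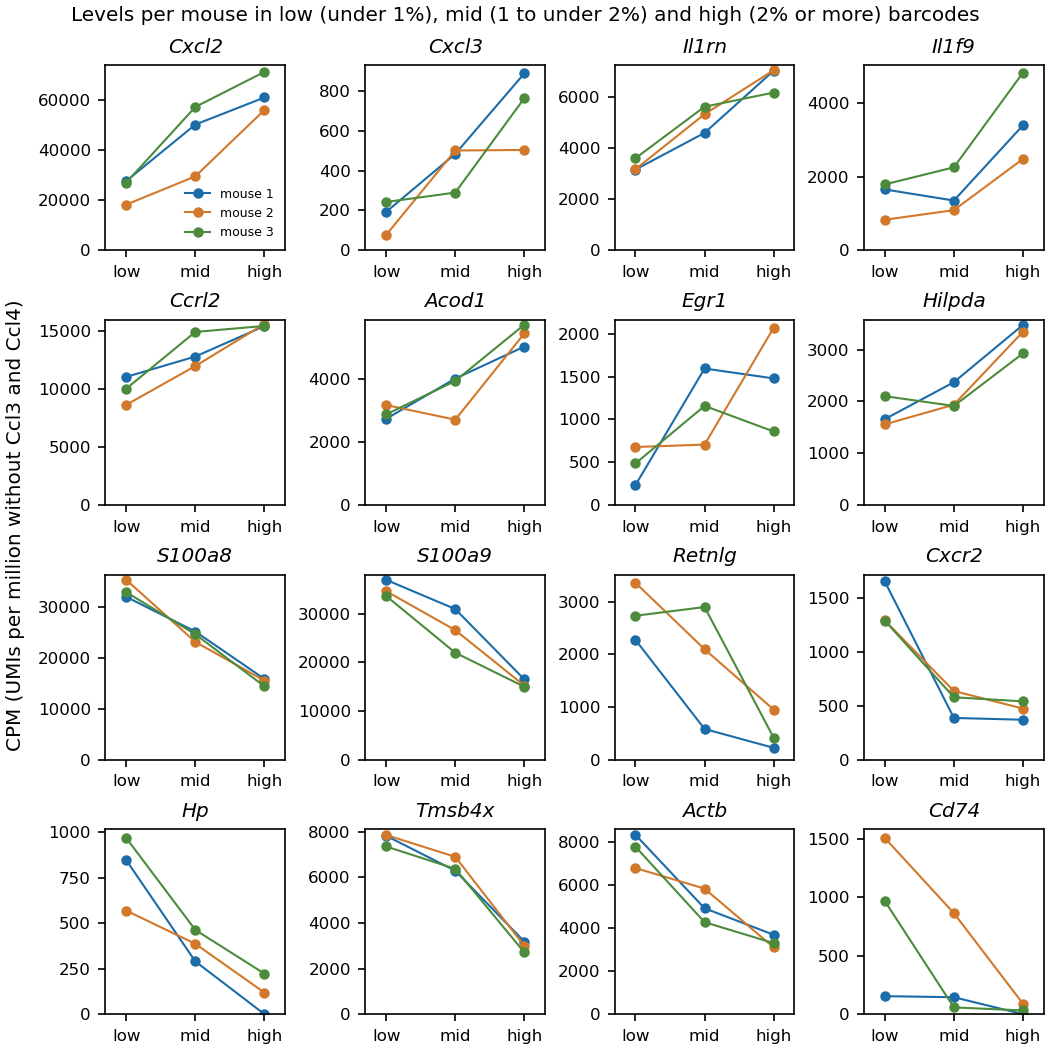
Each panel is 1 gene, with CPM from 0 on the vertical axis and, from left to right, the depth-matched low barcodes, all intermediate barcodes and the high barcodes of each mouse joined by a line. Cxcl2, Il1rn, Ccrl2 and Acod1 are higher in high than in low barcodes in each mouse, and S100a8, S100a9, Retnlg, Cxcr2, Tmsb4x and Actb are lower in each.

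Some genes of NF-kB signalling and of the immediate early response were higher and none was lower. Most were not called, as was so for all tested genes, of which 49 of 1560 were higher and 64 lower. Of 19 tested NF-kB genes 3 were higher and none lower, with a median of 0.25, and of 23 immediate early genes 3 were higher and none lower, with a median of 0.10. Nfkbia, the inhibitor that NF-kB itself induces, stood at 19088, 12228 and 14000 CPM against 11864, 8269 and 10015 CPM (0.59 ± 0.11, edgeR, adjusted p = 3.02e-05), a call that 6 of 18 other settings ended. Nfkbiz, an atypical nuclear inhibitor family member, was at 3435 ± 909 against 1739 ± 338 CPM (0.98 ± 0.20, adjusted p = 0.000104), lost in 5. Bcl2a1b, a survival gene of the Bcl2 family with near-identical copies, was called (1.10 ± 0.35), but 12 of 18 other settings ended its call. Tnfaip3, the deubiquitinase A20, did not pass (1.09 ± 0.39, adjusted p = 0.0724). Egr1, an early growth response factor, was at 1480, 2073 and 859 CPM in high and 231, 678 and 485 CPM in low barcodes (1.56 ± 0.30, adjusted p = 2.86e-05) and was called in all other settings. Ier3 was at 2630 ± 98.2 against 1426 ± 130 CPM (0.89 ± 0.21, adjusted p = 0.00144), lost in 3. Maff, a small Maf factor, was the third, at 866 ± 77.2 against 454 ± 128 CPM (1.03 ± 0.34, adjusted p = 0.0365), and 15 of 18 other settings ended its call. Fos (-0.67 ± 0.33, adjusted p = 0.268) and Atf3 (0.14 ± 0.21, adjusted p = 0.815) did not pass.

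Tissue digestion is known to induce stress messages, among them the immediate early genes above, of which 3 were higher. Of 5 tested heat shock genes and 8 genes of the unfolded protein response none was called in either direction, with medians of 0.07 and 0.49. Positive changes were seen in 3 of the 5 and 7 of the 8, and in 761 of all 1560 tested genes. Hsp90aa1 was higher in 3 of 3 mice but did not pass (0.74 ± 0.29, edgeR, adjusted p = 0.11). Other heat shock genes were too rare to test, among them Hspa1a (2 UMIs in high and 12 in low barcodes) and Hspa1b (1 and 1). Hspa5, the endoplasmic reticulum chaperone, was at 2774 ± 753 against 1973 ± 280 CPM (0.51 ± 0.20, adjusted p = 0.107). Of 11 tested genes of mRNA decay and MAP kinase feedback none was called, with a median of -0.03. Zfp36, whose product speeds the decay of cytokine and chemokine messages, overlapped between the classes at 1034 ± 389 and 1127 ± 401 CPM (-0.11 ± 0.27, adjusted p = 0.879).

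Acod1, the enzyme that makes itaconate from cis-aconitate and the subject of the series' title, was higher in high barcodes. It stood at 5031, 5448 and 5727 CPM in the high and 2735, 3172 and 2875 CPM in the low barcodes of mice 1, 2 and 3. The high values lay above all low values, and the change was 0.90 ± 0.16 on the log2 scale (edgeR, adjusted p = 7.04e-06) on 432 and 455 UMIs. The call held in 17 of 18 other settings, and with at least 300 genes per barcode the change was 0.84 at an adjusted p of 0.0831. Acod1 made up 2011 CPM of the tumor barcodes with 20 to 60 UMIs, which stand for free RNA. It made up 2321 CPM of all low barcodes and 5194 CPM of all high barcodes. As a part of all UMIs, Acod1 in low barcodes was thus near free RNA. By count it was not: 5945 barcodes of free RNA held 537 Acod1 UMIs, and 353 low barcodes with a single hashtag held 625. How many of the latter were free RNA was not tested. Only 1 other gene of its list, the TCA cycle gene Mdh2, had enough UMIs to test and was not called.

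The series' title also names ferroptosis, cell death through iron-dependent lipid peroxidation. Of 21 tested ferroptosis defence and Nrf2 target genes 3 were higher and none lower, with a median of 0.12. The ferritin chains, which store iron, had small changes: Fth1 was at 50859 ± 3805 against 39774 ± 4378 CPM (0.37 ± 0.08, edgeR, adjusted p = 0.000312), and Ftl1 at 23153 ± 4879 against 16547 ± 1882 CPM (0.50 ± 0.10, adjusted p = 0.000204). Intermediate barcodes had 51120 ± 6121 CPM of Fth1, near the high barcodes, and 19819 ± 2122 CPM of Ftl1, between the classes. Ftl1 was higher in 2 of 3 mice, its near-identical gene copies may have split its reads, and 13 of 18 other settings ended the call for Fth1 and 12 that for Ftl1. Sqstm1, an autophagy receptor and Nrf2 target, was at 1994 ± 394 against 1042 ± 249 CPM (1.00 ± 0.24, adjusted p = 0.00164), lost in 5. Slc7a11, the cystine importer that feeds glutathione synthesis, was at 740, 622 and 955 CPM in high and 539, 631 and 517 CPM in low barcodes and did not pass (0.47 ± 0.33, adjusted p = 0.512).

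Of 14 tested hypoxia targets 3 were higher and none lower, with a median of 0.56. They were Hilpda, a lipid droplet protein, at 3250 ± 287 against 1770 ± 290 CPM (0.89 ± 0.19, edgeR, adjusted p = 0.000446), Ero1l, an oxidase of disulfide bond formation (0.94 ± 0.29), and Bnip3l, a mitophagy receptor (1.19 ± 0.40), and 6, 9 and 14 of 18 other settings ended these calls. Vegfa was not among them, at 245 ± 100 against 325 ± 154 CPM (-0.46 ± 0.47, adjusted p = 0.685). None of 14 glycolysis genes was called, with a median of 0.36. Of 19 lysosomal and lipid handling genes 4 were higher and none lower. These were the proteases Ctsb (0.57 ± 0.17) and Ctsl (2.59 ± 0.69), the protease inhibitor Cstb (0.79 ± 0.16) and the saposin precursor Psap (0.93 ± 0.24). Ctsl had only 24 UMIs in high and 8 in low barcodes, and 7 of 14 settings that could test it ended its call. The other 3 calls were lost in 13 (Ctsb), 5 (Cstb) and 9 (Psap) of 18.

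Genes known as marks of neutrophils in tumors were mixed: of 22 tested, 5 were higher, 1 was lower, and the median was 0.28. Hcar2, the receptor for niacin and hydroxybutyrate, was at 4439, 3879 and 4550 CPM against 2465, 2202 and 2504 CPM (0.86 ± 0.17, edgeR, adjusted p = 0.000105). In intermediate barcodes Hcar2 was at 3385, 3391 and 5097 CPM. Cd274, which encodes the checkpoint ligand PD-L1, was at 518, 1480 and 1432 CPM against 539, 616 and 775 CPM, higher in 2 of 3 mice (0.91 ± 0.29, adjusted p = 0.0352), and 15 of 18 other settings ended its call. Trem1, a receptor that amplifies neutrophil activation, was the lower member (-1.18 ± 0.33, adjusted p = 0.0115), with its call lost in 8 of 18 settings. Cd14, the lipopolysaccharide co-receptor, was at 13175 ± 2317 against 11492 ± 271 CPM and did not pass (0.19 ± 0.11, adjusted p = 0.402).

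**Figure D4:**
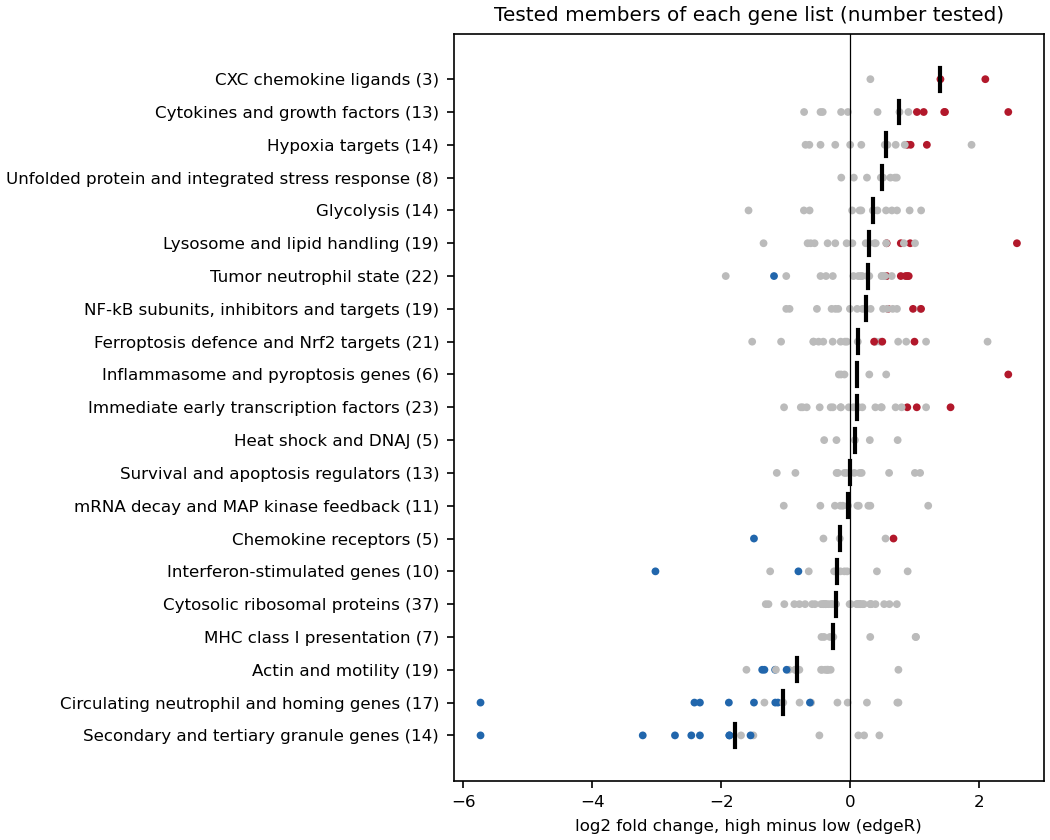
Each row is a list with at least 3 tested genes and each point a tested gene, placed by its edgeR log2 fold change (high minus low). Red points were called higher, blue lower and grey not called, and black bars are medians. Granule, circulating neutrophil and actin genes lie mostly below 0, with medians of -1.78, -1.04 and -0.83.

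Several genes of the circulating state and of the granules were lower. Of 17 tested circulating neutrophil and homing genes 8 were lower and none higher, with a median of -1.04, and of 14 tested secondary and tertiary granule genes 8 were lower and none higher, with a median of -1.78. Retnlg and Mmp8 are in both lists, and 3 members of each list had a positive log2 fold change. S100a8 and S100a9, the subunits of calprotectin, which are abundant in blood neutrophils, stood at 15833, 15515 and 14382 CPM and at 16499, 15219 and 14987 CPM in high barcodes. In low barcodes they stood at 31970, 35308 and 32889 CPM and at 37016, 34692 and 33697 CPM. The values did not overlap, with log2 fold changes of -1.12 ± 0.09 (edgeR, adjusted p = 4.52e-22) and -1.16 ± 0.09 (adjusted p = 1.4e-23). Among all 1534 blood barcodes S100a8 was at 89589 CPM, so in this measure low barcodes were nearer to blood than high barcodes were.

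Retnlg, a resistin-like gene of mature blood neutrophils, stood at 222, 947 and 414 CPM in high and 2273, 3357 and 2730 CPM in low barcodes (-2.33 ± 0.26, edgeR, adjusted p = 3.42e-14). Hp, which encodes the granule protein haptoglobin, stood at 0, 118 and 223 CPM against 847, 570 and 969 CPM (-2.46 ± 0.46, adjusted p = 1.6e-05), and Wfdc21 at 279 ± 65.0 against 1085 ± 160 CPM (-1.87 ± 0.36, adjusted p = 2.86e-05). Mmp8, the neutrophil collagenase, had 0 UMIs in high and 26 in low barcodes, at least 4.46-fold lower against a floor of 3 UMIs over the 3 mice. Ngp, an early granule gene, had 2 against 43 UMIs, a ratio of 11.1 (exact 95% interval 2.89 to 94.4). Barcodes with at least 1% of UMIs in Retnlg, Camp, Ngp, Ltf and Lcn2 together made up 66 of all 584 low barcodes (11.3%) and 4 of 199 high barcodes (2.01%). Without them, a removal that uses Retnlg itself, Retnlg was no longer called (-0.37 ± 0.35, adjusted p = 0.697), nor was Wfdc21 (-1.04, adjusted p = 0.163). S100a8 (-0.77, adjusted p = 6.72e-05), S100a9 (-0.92), Hp (-2.24, adjusted p = 0.00502) and Cxcr2 (-1.43, adjusted p = 0.00322) were still lower.

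Some cytoskeletal genes were lower too. Of 19 tested actin and motility genes 4 were lower, none was higher and the median was -0.83. Tmsb4x, which encodes the actin-binding peptide thymosin beta 4, was at 3181, 2990 and 2705 CPM against 7819, 7853 and 7350 CPM (-1.36 ± 0.15, edgeR, adjusted p = 7.88e-14), and Actb, cytoplasmic actin, at 3699, 3109 and 3309 CPM against 8358, 6806 and 7802 CPM (-1.16 ± 0.15, adjusted p = 7.02e-11). Both were called in all 18 other settings. Lcp1, the actin bundler plastin, was at 518 ± 219 against 1366 ± 121 CPM (-1.33 ± 0.30), and Arpc1b, a subunit of the Arp2/3 complex, at 486 ± 154 against 961 ± 63.3 CPM (-0.98 ± 0.33), a call that 15 settings ended. Of 37 tested ribosomal protein genes none was called, with a median of -0.22, and of 7 tested MHC class I genes none was called, with a median of -0.26.

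Interferon-stimulated genes gave 0 higher and 2 lower of 10 tested, Ifitm1 (-0.80 ± 0.21, edgeR, adjusted p = 0.00562) and Gbp2, with 3 against 53 UMIs (ratio 9.10, exact 95% interval 2.95 to 45.5). Their calls were lost in 6 of 18 and 6 of 16 settings. Rsad2, an antiviral gene of that list, was not called but was higher under 3 other settings, among them without mouse 3 (1.93, adjusted p = 0.00486), and its log2 change was -0.21 without mouse 2. Of 13 survival and apoptosis genes none was called, with a median of 0.00. The 15 genes with the largest positive changes, chosen by size among called genes that were higher in 3 of 3 mice, held several of low count. Mdm2, the p53 ubiquitin ligase, had 53 against 21 UMIs (2.17 ± 0.45, adjusted p = 0.000195), but 1 high barcode held 21 of its UMIs and without mouse 3 it was not called. Grap, an adaptor protein, had 19 against 8 UMIs (2.13 ± 0.72, adjusted p = 0.047), 8 of them from 1 barcode. Lrrfip2, by contrast, had 66 UMIs spread over 43 high barcodes (1.63 ± 0.37, adjusted p = 0.000651), and Fnip2, a folliculin-interacting protein, 33 over 28 (1.59 ± 0.49, adjusted p = 0.0254), though 12 of 18 settings ended the call for Fnip2.

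Markers of other cells were examined because sorted cells can hold others. The neutrophil list summed to between 38660 and 44022 CPM in the high barcodes of the 3 mice and to between 81867 and 87092 CPM in low barcodes, and all 12 markers but Ly6g were seen in high barcodes. S100a8 and S100a9 gave most of these sums, 1190 and 1208 of 3197 UMIs in high and 5159 and 5300 of 12880 in low barcodes. Of the others, Il1r2 had 188 and 587 UMIs, G0s2 80 and 176, and Clec4d 306 and 430. Clec4d alone of the 12 was not lower in high barcodes, given the UMIs of all genes in the classes. Ly6g had 0 UMIs in high and 7 in low barcodes, although its protein was used in the sort. Monocyte and macrophage markers summed to between 296 and 1007 CPM in high and between 732 and 3357 CPM in low barcodes, 69 and 366 UMIs. Of the 15 markers, 10 were at 0 in high barcodes, among them C1qa, C1qb, C1qc, Adgre1, Ccr2 and Mrc1. Apoe had 12 and 193 UMIs. Cd68 gave most of the UMIs in high barcodes, 52 against 73 in low barcodes. With 78718 and 152810 UMIs of all genes in the classes, Cd68 was not lower in high barcodes. MHC class II and dendritic cell markers summed to between 159 and 222 CPM against 308 to 3588 CPM, 14 and 378 UMIs. NK, T, mast, eosinophil, fibroblast, erythroid and platelet markers were at 0 UMIs in high barcodes, which shows little: the file holds 1 of 9 NK, 4 of 10 T cell, 3 of 5 erythroid and 1 of 4 platelet markers, and the NK, erythroid and platelet markers were at 0 in the matched low barcodes too.

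The lower genes of the whole test include such markers. Cd74, the MHC class II invariant chain, had 0, 88.8 and 31.8 CPM in high and 154, 1509 and 969 CPM in low barcodes, 4 against 162 UMIs (-4.27 ± 0.55, edgeR, adjusted p = 7.02e-11), and C1qa, a complement subunit of macrophages, had 0 against 26 UMIs, at least 4.46-fold lower. In all 353 low barcodes with a single hashtag, 359 Cd74 UMIs came from 19 barcodes. Barcodes with at least 3 UMIs from at least 2 monocyte, MHC class II, NK or T cell markers made up 3 of 199 high (1.51%), 17 of 164 intermediate (10.4%) and 55 of 584 low barcodes (9.42%). Without them 36 genes were higher and 52 lower, Lyz2, a lysozyme of all myeloid cells, was no longer called (-0.33, adjusted p = 0.769), and Cxcl2 (1.37), Acod1 (0.87), S100a8 (-1.18) and Retnlg (-2.35) were called as before. Genes of immature neutrophils overlapped between the matched classes, with sums of 222 to 382 CPM in high and 38.5 to 695 CPM in low barcodes. These were 26 and 61 UMIs. Mki67 had 9 and 2 of them, Top2a 4 and 0, Ltf 7 and 7, Tuba1b 3 and 3, Camp 1 and 5, and Ngp 2 and 43. The same list summed to 275 CPM in all high and 6631 CPM in all low barcodes, where Camp had 4 and 972 UMIs and Ngp 3 and 1260.

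Within the 590 barcodes with a single hashtag the levels of several genes differed along the whole range of the Ccl3 and Ccl4 share. The bands were 0%, over 0 to under 0.5%, 0.5 to under 1%, 1 to under 2%, 2 to under 4%, and 4% or more, with 108, 157, 88, 114, 80 and 43 barcodes, and were set after the results were known. Cxcl2 was at 11274 ± 2754, 24536 ± 6227, 33938 ± 8816, 45784 ± 14442, 61253 ± 13854 and 68717 ± 10955 CPM over the bands (SD, n = 3 mice). Acod1 was at 1981 ± 481, 2460 ± 987, 3066 ± 446, 3554 ± 733, 4895 ± 666 and 6748 ± 1068 CPM. Both means were higher in each band than in the one before, although neighbouring bands lay within about 1 SD of each other in several steps. S100a8 was at 49030 ± 12067, 41457 ± 5931, 24934 ± 7618, 24288 ± 1061, 14470 ± 1401 and 17606 ± 3876 CPM, with no further fall in the last band. Retnlg was at 9881 ± 6623 CPM in barcodes with no Ccl3 or Ccl4 UMI and at 547 ± 550 CPM in the last band. Cxcl3 did not follow such an order. It was at 1032 ± 195 CPM between 2 and 4% on 52 UMIs, and at 30.0 ± 52.0 CPM at 4% or more, on 1 UMI in 43 barcodes.

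**Figure D5:**
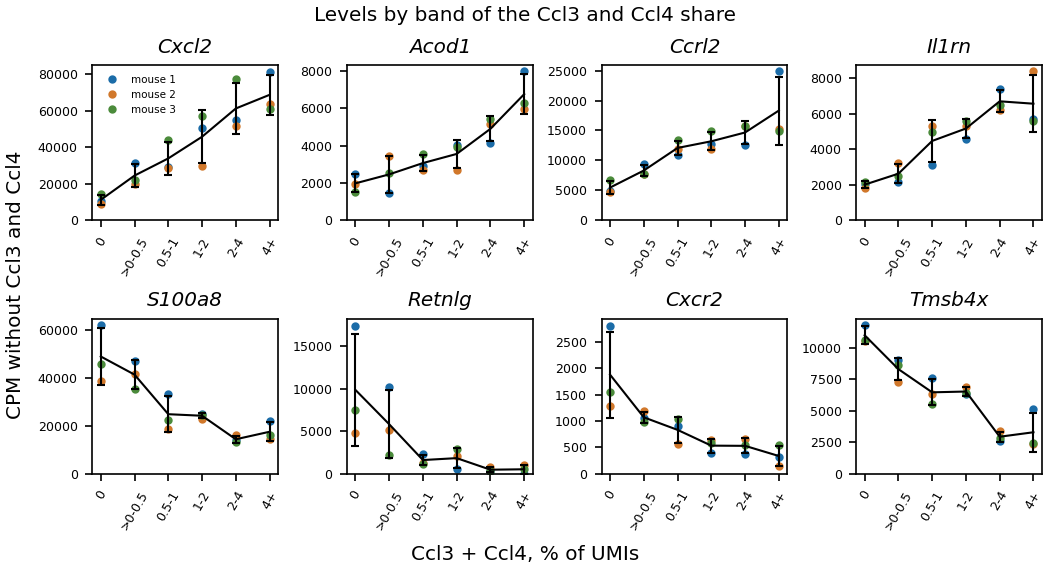
Each panel is 1 gene over 6 bands of the Ccl3 and Ccl4 share of a barcode (horizontal), with CPM from 0 on the vertical axis. Coloured points are the 3 mice and the black line is their mean ± SD. Cxcl2, Acod1, Ccrl2 and Il1rn are at their lowest mean in the band without Ccl3 or Ccl4, and S100a8, Retnlg, Cxcr2 and Tmsb4x at their highest.

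Across these 590 barcodes, the genes whose share of UMIs was most like the summed share of Ccl3 and Ccl4, among 783 genes seen in at least 10% of barcodes, were Cxcl2 (Spearman's rho 0.49), Il1rn (0.35), Ccrl2 (0.32), Ftl1 (0.27) and Hcar2 (0.26). The lowest were Actb (-0.32), Tmsb4x (-0.31), Hp (-0.23), S100a11 (-0.23) and Cxcr2 (-0.22). These barcodes share a library and differ in depth, and the values are a description. High barcodes without a single hashtag entered no test. The 28 with several hashtags had 75875 CPM of Cxcl2, 4450 CPM of Acod1 and 25337 CPM of S100a8, and the 48 with no call had 59273, 4903 and 18398 CPM. Low barcodes of the same kinds had 16600 and 14884 CPM of Cxcl2, 1925 and 1948 CPM of Acod1, and 39508 and 59831 CPM of S100a8, so these 3 genes had the directions of the tested mice. Of the 35 named genes called higher, 30 were higher in the barcodes with several hashtags and 33 in those with no call, and of the 27 called lower, 22 and 26 were lower. Ctsl and Mdm2 had the opposite direction in both, Osbpl8, Cd274, Bnip3l, Tmem50a, Fgl2, Shisa5, Trem1 and Lcp1 in the first, and Gbp2 in the second.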

How the data were processed

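The authors deposited UMI counts (whole numbers) per gene and barcode, and hashtag counts per barcode, for 1 tumor and 1 blood library. STAR and the build mm10 are named without versions per the submitters' processing notes, and no source used here gives the gene counter or its annotation. The tumor file lists 10000 barcodes with 1315437 UMIs, 963 of them with at least 200 genes, and the libraries share 20 barcodes. The median depth of 581 UMIs per high barcode limits precision.

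Mice were assigned with HTODemux (Seurat 5.3.0, 4 centres, quantile 0.99) on hashtag counts scaled across barcodes. The planned design did not state the direction of scaling: this one was kept because it gave the mouse assignment described earlier for these data, before any gene was compared, and scaling within barcodes is an alternative. Barcodes with several hashtags were left out of the tests as doublets, no further caller was used, and doublets within 1 mouse stay unseen.

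UMIs were summed per mouse and class and tested with edgeR 4.0.16 in R 4.3.3 (TMM scaling, quasi-likelihood, mouse as a block, since both classes come from the same animals and the hashtag gives the pairing). DESeq2 1.42.0, other filters, limits, assignments and left-out mice were alternatives, 18 in all, of which 2 were added after seeing the data. The test was checked on simulated counts of 1441 genes, where 0 of 1252 unchanged genes were called. These counts had the same dispersion for every gene and no mouse effect, so they cannot show how often clumped UMIs give false calls.

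The members, gene lists, markers and comparison were chosen with earlier results of these data known. Named genes are the 15 largest called changes in each direction with the same sign in 3 of 3 mice, up to 4 tested genes per list with the smallest p, and a set of neutrophil and chemokine genes, 112 in all; Il1f9 is among the first. S100a11 and markers of other cells are named from the likeness rule and the marker lists. Promoters and coordinates are from RefSeq (GRCm38.p6) and GENCODE. The motif counts leave out all windows on the chromosome that holds Egr1, Cd74 and Cd14, so these genes are in none of the counted sets.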

Additional observations from a re-analysis of the deposited data

Results flagged for a closer look

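Tumor barcodes that entered no test also held the signal. Among the 123 barcodes with several hashtags 22.8% were high (28 barcodes, exact 95% interval 15.7 to 31.2), and among the 234 with no hashtag call 20.5% were (48 barcodes, 15.5 to 26.3). Both were picked out because they lie outside the comparison by mouse and above blood, where 0 of 1534 barcodes were high. Barcodes with several hashtags can hold more than 1 cell, and its part in their share was not tested.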

How the results depend on the processing

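The count of genes higher in high barcodes was 49 and that of genes lower was 64. The higher count fell to 25 with all low barcodes and no depth matching, 21 with every barcode thinned, 30 with no replicate block for the mouse, 8 with DESeq2, 16 with edgeR's default filter (500 genes tested), 14 with every gene of at least 1 UMI, 25 with the 70% hashtag rule, 23 with high barcodes at 3% or more, 12 with at least 300 genes per barcode and 25 without barcodes rich in Retnlg and granule genes. It ran from 16 to 47 with a mouse left out. The lower count fell to 14 with DESeq2, 17 with the default filter, 36 with the 70% rule, 35 at 3% or more, 32 with at least 300 genes and 32 without granule-rich barcodes, ran from 28 to 60 with a mouse left out, and was 44 with no replicate block. DESeq2 size factors gave 53 and 70, and the other settings stayed within 1.5 times. DESeq2 gave no adjusted p for 968 genes, which were left out. The share of high barcodes, 20.7%, was 16.2% with at least 300 genes and from 19.6 to 21.4% with a mouse left out.

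Named genes that were called kept direction and call in 718 of 1043 tests over the settings and lost the call in 325, and none reversed. Of those not called, 10 gained a call in at least 1 setting, 15 gains in all. The medians of the 23 gene lists moved by more than the spread between mice in 17 lists with every gene of at least 1 UMI, in 8 with the default filter, in 8 without mouse 2, and in at most 7 under any other setting. The genes that changed direction had not been called. With a mouse left out, the log2 change ran from -0.77 to 0.79 for Aim2, -0.16 to 0.39 for Atf3, -0.35 to 0.91 for Calr, -0.23 to 1.75 for Cxcr1, -0.19 to 0.76 for Dnaja1, -0.41 to 0.0012 for Dnajb6, -0.68 to 0.32 for Hsp90ab1, -0.13 to 0.65 for Icam1, -0.40 to 0.12 for Il1b, -0.21 to 1.93 for Rsad2, -0.78 to 0.10 for Vegfa and -0.19 to 0.0069 for Zfp36. With at least 300 genes it was -0.0493 for Slc7a11 and -0.0847 for Atf3. With every gene tested it was -0.0455 for Cd14, -0.0993 for Atf3 and -0.18 for Mdh2. At 3% or more it was -0.25 for Cxcl1, -0.0841 for Atf3, -0.0365 for Hsp90aa1 and -0.22 for Dnaja1, and thinned it was -0.0237 for Cxcl1 and -0.0775 for Dnaja1. The 70% rule gave 0.0609 for Zfp36 and -0.29 for Mdh2, scaling within barcodes 0.17 and -0.20, and Mdh2 was -0.58 without the deepest barcodes. The causes were not tested. Depth limits genes of few UMIs most.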

Other observations

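The UMIs of several called genes came from few of the 123 high barcodes with a single hashtag. The 68 UMIs of Il23a came from 16 high barcodes and the 87 of Inhba from 27, with 14 and 16 of them in a single barcode. Rsad2 had 67 UMIs in 24 high barcodes and was not called. Cxcl2 and Ccrl2 were seen in 118 and 115, but also in 320 and 294 of the 353 low barcodes. Free RNA held 16950 CPM of Cxcl2 and 3247 CPM of Ccrl2. By count, its 5945 barcodes held 4526 UMIs of Cxcl2 and 867 of Ccrl2, and the 353 low barcodes held 5465 and 2031. How many UMIs in low or high barcodes were free RNA was not tested.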
